A study of Mus musculus with 9 samples.

Results

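The mucosal pentraxins Mptx1 and Mptx2 and intelectin 1 (Itln1) were followed across the colonic arrays of a mouse colitis experiment. The study's lists of probes name 1 probe for each. The 3 are among 166924 probes on the array, most of which have no symbol, and among 176 genes whose symbols those lists give. The 3 genes were chosen by their measured values on these same arrays, namely a low intensity in the DSS group against the Control group and a return in the DSS+PAMK group. Their values are therefore given as a description, without a test.

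The arrays held colonic RNA of male C57BL/6J mice aged 10 weeks, with 3 arrays in each of 3 groups. Control mice drank distilled water, and the DSS and DSS+PAMK mice drank 3% dextran sulfate sodium (DSS), which injures the lining of the colon, during 7 days. On days 8 to 14, the Control and DSS mice received normal saline by gavage at 1 ml per 100 g, and the DSS+PAMK mice received 200 mg/kg PAMK, a polysaccharide of Atractylodes macrocephala, by the same route. Slide 1 held the Control arrays and DSS replicate 1, slide 2 held DSS replicates 2 and 3 with DSS+PAMK replicates 1 and 2, and slide 3 held DSS+PAMK replicate 3.

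Pentraxins are secreted proteins that bind ligands on microbes and on damaged cells, and C-reactive protein is their best known member. The mucosal pentraxins are the forms made by the intestinal epithelium. Intelectins are secreted lectins that bind sugars found on microbial surfaces, and they are made by goblet and Paneth cells.

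The 3 genes lie on 1 chromosome of the RefSeq annotation (GRCm38.p6), Itln1 at chr1:171518123-171535325, Mptx2 at chr1:173274461-173277756 and Mptx1 at chr1:174330518-174332877. The array files give a 60-base sequence for each probe but no gene symbol, and the symbols come from the study's lists of probes. RefSeq sequence was taken from 250 bases before to 50 bases after each gene's start, which for Itln1 lies inside its locus. The probe listed as Mptx1 was compared with this sequence. All 60 of its bases matched at the start of Mptx2, from 18 bases before to 42 bases after that start (chr1:173277715-173277774, minus strand). At the start of Mptx1, its first 47 bases matched (chr1:174330521-174330567, plus strand), and the remaining 13 ran past the end of the Mptx1 sequence and were not compared. Its intensity can thus hold signal from either gene, and the contributions of Mptx1 and Mptx2 to it cannot be told apart. It is called the probe listed as Mptx1 from here on.

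Parts of the 3 probes are shown because the identity of the first of them bears on every value that follows. The capitals mark bases that were also matched at the start of Mptx1.
Probe listed as Mptx1, bases 31 to 60: GGAATTGTCCAAGAAGAgcacaatggagaa
Mptx2 probe, bases 1 to 30: atatgctctatgttgggaattcgggagtca
Itln1 probe, bases 1 to 30: ggagactttgcgtcatttgattgggatgga
The whole Mptx2 and Itln1 probes were found in 0 of the 32851 sequences around gene starts. These sequences end 50 bases past a start and did not hold the probes' own genes' matches either. Which genes the Mptx2 and Itln1 probes match was therefore not checked, and their names rest on the study's lists. Of the other probes on the array, 0 shared a run of 20 bases with any of the 3.

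All 3 probes were well above background on all 9 arrays, and 0 of their spots were saturated or marked as outliers. The values below are log2 intensities, quantile normalized over the 9 arrays. The probe listed as Mptx1 was at 16.63, 17.31 and 17.10 on the Control arrays, at 11.80, 8.60 and 9.50 on the DSS arrays and at 16.90, 14.10 and 15.66 on the DSS+PAMK arrays, in the order of the replicates. The DSS arrays lay below all others by a wide margin, and DSS+PAMK replicate 1 lay inside the Control range. The group means were 17.01 ± 0.35, 9.97 ± 1.65 and 15.56 ± 1.40 (SD, n = 3).

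The Mptx2 probe was at 15.91, 16.07 and 15.95 on the Control arrays, at 11.13, 7.80 and 8.90 on the DSS arrays and at 15.83, 13.16 and 14.72 on the DSS+PAMK arrays. Here too the DSS arrays were the low ones, and DSS+PAMK replicate 1 came within 0.08 of the lowest Control array. The means were 15.98 ± 0.08, 9.28 ± 1.70 and 14.57 ± 1.34 (SD, n = 3). The Control arrays were thus close to each other, while the treated groups each spread over several log2 units.

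The Itln1 probe was at 15.34, 15.07 and 15.60 on the Control arrays, at 8.94, 9.68 and 11.16 on the DSS arrays and at 14.24, 9.22 and 12.40 on the DSS+PAMK arrays. All Control arrays lay above all others, but the DSS and DSS+PAMK groups overlapped, since DSS+PAMK replicate 2 lay between DSS replicates 1 and 2. The means were 15.34 ± 0.27, 9.93 ± 1.13 and 11.95 ± 2.54 (SD, n = 3). The range within the DSS+PAMK group was 5.01 on the log2 scale, a 32.3-fold difference between its arrays.

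**Figure D1:**
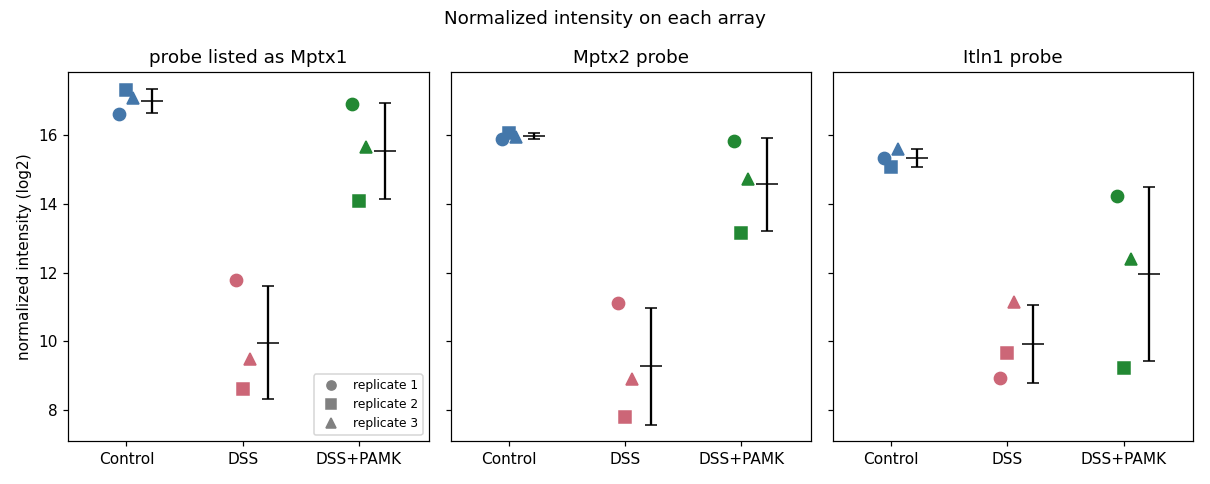
Normalized log2 intensity of the 3 probes on each array, with the shape of a point giving the replicate and the bar giving the group mean ± SD (n = 3). The DSS arrays are low for all 3 probes, and DSS+PAMK replicate 2 falls to 9.22 for the Itln1 probe, inside the DSS range.

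The differences were large before normalization as well. The processed intensity of the probe listed as Mptx1 ranged from 86129 to 153616 on the Control arrays, from 445.0 to 3243 on the DSS arrays and from 18353 to 129199 on the DSS+PAMK arrays. That of the Itln1 probe ranged from 31267 to 47906, from 415 to 2730 and from 585 to 20118 in the same order. The dimmest of these spots, the Mptx2 probe on DSS replicate 2, was still 9.97 times as bright as its local background. Probes with 10 spots had a median SD of 0.0391 between their spots on 1 array, in the same range of intensity. The 3 members have 1 spot each, so their own spread between spots was not measured.

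**Figure D2:**
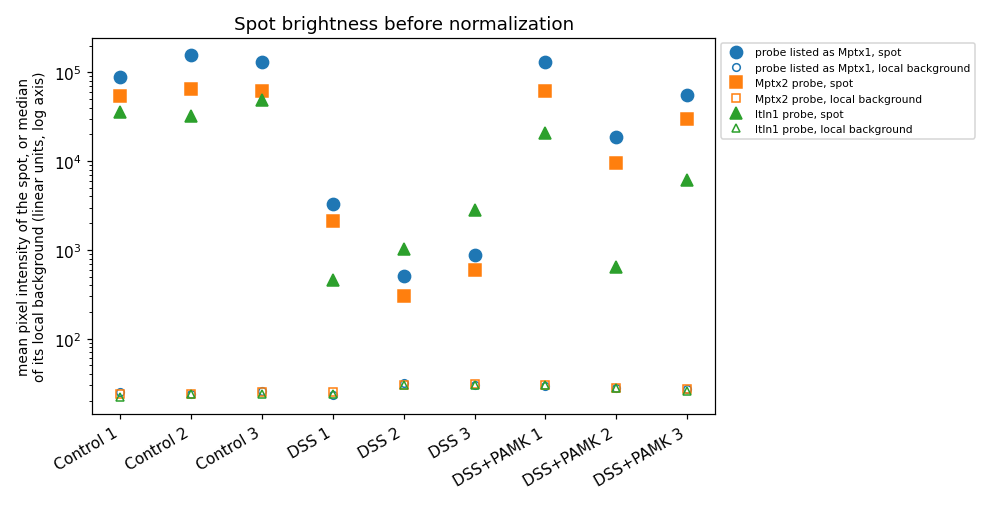
Mean pixel intensity of the spot of each probe and the median of its local background on each array, in linear units on a log axis. The spots stay above their backgrounds on every array, and the ratio is lowest, at 9.97, for the Mptx2 probe on DSS replicate 2.

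Between the DSS and Control groups, the mean of the probe listed as Mptx1 fell by 7.05 on the log2 scale, that of the Mptx2 probe fell by 6.70 and that of the Itln1 probe fell by 5.41. These correspond to 132-, 104.0- and 42.6-fold lower intensities. Among the 99612 tested probes, 0 had a larger fall than the probe listed as Mptx1, 1 had a larger fall than the Mptx2 probe and 6 had a larger fall than the Itln1 probe. A probe was called if its group means differed at least 2-fold with unadjusted p no larger than 0.05, by which 1.08% of the tested probes were called lower and 1.98% were called higher in this comparison. The side with more calls depends on the setting, with 1353 higher and 3085 lower under the 75th percentile shift and 2938 and 6930 with slide as a fixed block. Nothing is read from the 3 probes against these shares, since this contrast chose them. Within slide 1, which held DSS replicate 1 and the Control arrays, the differences were -5.22, -4.84 and -6.40. In whole tissue, fewer cells that make an RNA and less of it per cell cannot be told apart.

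Between the DSS+PAMK and DSS groups, the probe listed as Mptx1 was higher by 5.59 and the Mptx2 probe by 5.30, without overlap of the arrays, and the Itln1 probe by 2.03, with overlap. Of all tested probes, 0.643% were called higher and 1.06% lower. How many of all tested probes had no overlap was not counted. Nothing is read from these shares or from the lack of overlap, since the return in this contrast chose the 3 probes. Within slide 2, which held 2 arrays of each group, the differences were 6.45, 6.15 and 1.31. Without DSS+PAMK replicate 2, the Itln1 difference was 3.38, and without DSS+PAMK replicate 1 it was 0.89. With any 1 array left out, the probe listed as Mptx1 ranged from 4.92 to 6.49 higher and the Mptx2 probe from 4.56 to 6.21.

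Set against Control, the DSS+PAMK group had differences of -1.46 for the probe listed as Mptx1, -1.40 for the Mptx2 probe and -3.38 for the Itln1 probe. The groups overlapped for the probe listed as Mptx1. They were apart by 0.08 for the Mptx2 probe and by 0.83 for the Itln1 probe. How many of all tested probes were apart in this way was not counted, and nothing is read from it. In this comparison 1.65% of the tested probes were called higher and 1.02% lower, against counts of 837 and 4195 under the 75th percentile shift and 3946 and 6706 with slide as a fixed block. There was no slide with arrays of both groups, and with slide as a fixed block in the fit the differences of the first 2 probes turned positive, to 1.23 and 1.30, so that their direction depends on how slide is treated, while that of Itln1 moved further below 0, to -5.09. Leaving out DSS+PAMK replicate 2 brought the 3 differences to -0.73, -0.70 and -2.01, and leaving out DSS+PAMK replicate 1 brought them to -2.13, -2.04 and -4.52.

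**Figure D3:**
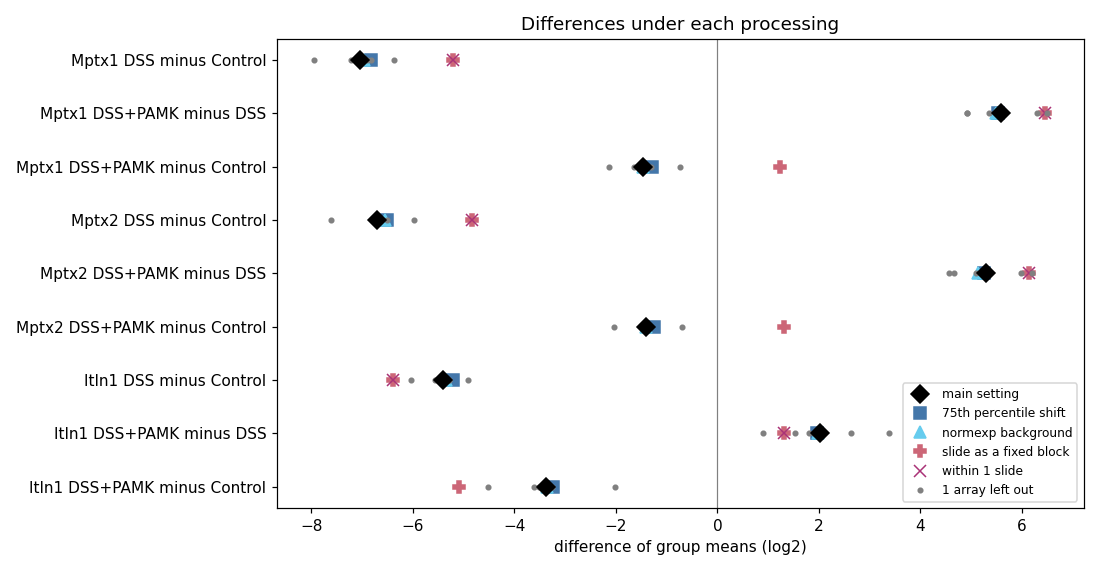
Differences of group means (log2) of the 3 probes under each way of processing, where gray points each leave out 1 array and Mptx1 stands for the probe listed under that symbol. The DSS minus Control differences stay negative and the DSS+PAMK minus DSS differences stay positive, whereas the pentraxin differences between DSS+PAMK and Control are 1.23 and 1.30 with slide as a fixed block.

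The 2 pentraxin probes followed each other closely from array to array. Relative to the Control mean, the probe listed as Mptx1 lay at -5.22, -8.41 and -7.52 on the DSS arrays, and the Mptx2 probe at -4.84, -8.18 and -7.08. On the DSS+PAMK arrays the values were -0.11, -2.91 and -1.35 for the first and -0.15, -2.81 and -1.25 for the second. Their Pearson r over the 9 arrays was 0.999, and each was the most similar of 99589 probes to the other. The shared sequence described above applies to this likeness.

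The Itln1 probe shared only part of this order. Its values relative to the Control mean were -6.40, -5.66 and -4.18 on the DSS arrays, so that DSS replicate 1 was its lowest DSS array, whereas DSS replicate 1 was the highest for both pentraxin probes. On the DSS+PAMK arrays it lay at -1.10, -6.12 and -2.94, and all 3 probes had replicate 1 highest, replicate 3 between and replicate 2 lowest. Its Pearson r was 0.794 with the probe listed as Mptx1 and 0.793 with the Mptx2 probe over the 9 arrays, and 1014 of the 99589 probes were at least as similar to it as the former.

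The sequence before the starts of the genes is shown as a description. The probe listed as Mptx1 can hold signal from Mptx2, so the likeness of the pentraxin probes need not be that of 2 genes. The part of this sequence in that likeness was not tested. The 100 bases before each start used follow, from RefSeq (GRCm38.p6), with TATAA on either strand in capitals. The start used for Itln1 lies inside the locus given above. The Itln1 bases at chr1:171535295-171535325 therefore belong to that locus.
Mptx1, chr1:174330418-174330517, plus strand: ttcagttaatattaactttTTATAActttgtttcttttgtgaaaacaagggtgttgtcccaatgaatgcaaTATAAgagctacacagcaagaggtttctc
Mptx2, chr1:173277757-173277856, minus strand: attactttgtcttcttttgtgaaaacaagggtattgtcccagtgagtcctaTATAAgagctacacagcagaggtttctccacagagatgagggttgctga
Itln1, chr1:171535295-171535394, minus strand: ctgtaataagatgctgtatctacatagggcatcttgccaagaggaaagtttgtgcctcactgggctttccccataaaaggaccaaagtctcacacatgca
In these 100 bases the motif had 3 matches for Mptx1, of which a pair overlaps, 1 for Mptx2 and 0 for Itln1. For Itln1 these bases lie partly inside the locus. Of 27025 genes, 2881 had at least 1 match. In the 250 bases before the start it had 5, 1 and 1 matches, and 23.5% of genes had it. TTTAT, which can overlap TATAA, had 3, 2 and 1 matches on either strand in the 250 bases, against 38.1% of genes with any. The Itln1 match lay 28 to 24 bases before the start used, and so inside the Itln1 locus. Over the whole 300 bases, the Mptx1 and Mptx2 sequences were 78.0% identical when aligned, and the Itln1 sequence was 49.7% identical to the first and 48.6% to the second. The motif TTCNNNGAA, a form that STAT factors bind and the same on both strands, had 0 matches in the 250 bases before any of the 3 starts, and 7.2% of all genes held it there. The form with 1 more N also had 0 matches, against 5.9% of genes. A match or its absence in these letters says nothing on its own of binding.

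**Figure D4:**
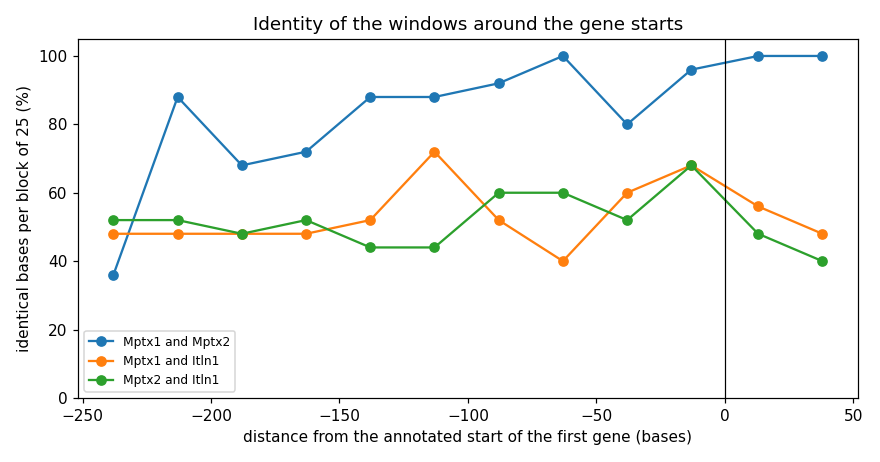
Percentage of identical bases in aligned blocks of 25 bases around the gene starts used, by distance from the start of the first gene named. The Mptx1 and Mptx2 sequences are 100.0% identical in both blocks after the start. These hold the 47 bases of the probe listed as Mptx1 that were compared at Mptx1.

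The genes with the pattern most like each member were taken from 142 genes whose symbols came from the study's lists and whose probes were well above background on every Control array. Those lists were themselves selected on these arrays. For the probe listed as Mptx1 the 5 highest Pearson r values over the 9 arrays belonged to E330009J07Rik (0.951), Nkg7 (0.947), Senp5 (0.944), Dcun1d3 (0.935) and St3gal6 (0.933). The Mptx2 probe shared the first 4 of these, with r of 0.940, 0.949, 0.942 and 0.936, followed by Scin (0.923). For the Itln1 probe they were Grpr (0.983), Fam221a (0.980), Pla2g4c (0.951), Fcgbp (0.943) and Clps (0.943). Pla2g4c, a cytosolic phospholipase, was at 9.26, 4.27 and 6.19 on the DSS+PAMK arrays, with replicate 2 lowest as for Itln1.

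Markers of the cells that surround these genes were read from lists of 182 genes, of which 16 had a probe named in the study's own lists, so that their directions are not independent evidence. Between the DSS and Control groups 14 of the 16 were called, with a median log2 difference of 1.87 against -0.04 over all tested probes, and 6 passed limma's Benjamini-Hochberg adjustment over all probes, as did 175 (0.176%) of all tested probes. These 6 calls, of Clps, Pnliprp1, Pnliprp2, Itgam, Cpa3 and Ms4a2, depend on the setting: 0 list genes passed the adjustment with replicate number as a block, without a filter on dim probes, by the methods' test, or with any 1 Control array or DSS replicate 1 left out. With slide as a fixed block, 1 passed. With normexp, 12 passed: these 6, with Mmp7 (limma adjusted p = 0.0288), Fcgbp (0.0254), Scnn1b (0.0377), Il33 (0.0182), Wfdc21 (0.0194) and Saa3 (0.0270). In the comparison of DSS+PAMK with DSS, 13 were called (median -1.11 against 0.02), and in that of DSS+PAMK with Control, 5 (median -0.12 against -0.01), with 0 after limma's adjustment in either. With normexp, Cpa3 (limma adjusted p = 0.0376) and Pnliprp2 (0.0477) passed in the latter, as did 98 higher and 40 lower probes of all tested. Over all tested probes, 7192 and 13874 had an unadjusted p of at most 0.05 in these 2 comparisons.

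Fcgbp, a goblet cell mucus protein, was the only one of 20 goblet cell genes with a named probe, and was at 14.36 ± 0.12 in Control, 12.75 ± 0.18 in DSS and 13.83 ± 0.66 in DSS+PAMK (SD, n = 3). It was called lower in DSS (log2 difference -1.61, limma adjusted p = 0.0889) and higher in DSS+PAMK than in DSS (1.08, adjusted p = 0.660). The second call was lost with the 75th percentile shift (0.99), with slide as a fixed block (0.89), by the methods' t-test and without DSS replicate 1 or DSS+PAMK replicate 1 or 3. Among 17 Paneth cell genes, 3 had a named probe, and they did not move together. Clps, colipase, fell in the DSS group (-2.83, limma adjusted p = 0.0392), whereas Mmp7, the protease that activates defensins, was called higher (3.59, adjusted p = 0.219). Control replicate 2 was not well above background for Mmp7, and without that array the difference was 2.14 (adjusted p = 0.126). Mmp7 was not called with slide as a fixed block (3.65) or by the methods' t-test, and with normexp the difference was 2.32. The third, the defensin Defa3, was not called (0.41, limma adjusted p = 0.742). It was at 5.235 on Control replicate 2, above every DSS array, and at 3.211 and 3.435 on Control replicates 1 and 3, below them. Without Control replicate 2, 15 list genes were called, the 14 of the main fit with Defa3 higher in DSS. In DSS+PAMK vs DSS, Mmp7 (-3.07, limma adjusted p = 0.666) and Defa3 (adjusted p = 0.660) were called lower, unlike the members, and Clps was not called (0.86, adjusted p = 0.680). Without DSS+PAMK replicate 2, 15 list genes were called in this comparison, the 13 of the main fit with Clps and Pnliprp2, both higher as the members were. Defa3 did not stand well above background on the DSS+PAMK arrays, and was at least 1.69-fold higher in DSS and at least 1.27-fold higher in Control. The Control bound rests on Control replicate 2 alone. Control replicates 1 and 3 lay below 3.616, the level that stood for DSS+PAMK, so without replicate 2 no such bound holds. Against Control, Clps (-1.97, limma adjusted p = 0.179) and Defa3 (adjusted p = 0.309) were called lower in DSS+PAMK. With slide as a fixed block, the main calls of Mmp7 and Defa3 against DSS and of Clps and Defa3 against Control were lost. Both of these Defa3 calls were also lost with normexp, and that of Mmp7 without DSS+PAMK replicate 3. The Defa3 call against Control was also lost by the methods' t-test and without Control replicate 2 or DSS+PAMK replicate 1 or 3. The part of cell composition in the fall of the 3 members was not tested.

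The lipase relatives Pnliprp1 and Pnliprp2, listed with the pancreas, also fell in the DSS group. Pnliprp2 was at 12.05 ± 0.60, 6.61 ± 0.29 and 8.05 ± 1.55 in the 3 groups, a DSS vs Control difference of -5.43 (limma adjusted p = 0.0392). Pnliprp1 did not stand well above background on the DSS arrays. Against DSS it was at least 6.14-fold higher in Control (limma adjusted p = 0.0484) and at least 3.08-fold higher in DSS+PAMK (adjusted p = 0.660). Such bounds set the mean of the brighter group against the lowest signal of probes well above background, or the probe's own where higher, on each array of the dimmer group. With normexp the differences were -0.91 for DSS vs Control and 0.43 for DSS+PAMK vs DSS, and neither was called. The offset of 50 in normexp draws the log2 values of dim probes together, so these differences are not set against the bounds. Neither Pnlip nor any other pancreatic gene of that list had a named probe, so pancreatic RNA was not checked further.

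Of the absorptive colonocyte list 2 of 15 genes had a named probe, both from the study's lists, which is too few to check the colonic label. Slc26a3, the chloride exchanger of colonic surface cells, was well above background on all 9 arrays, at 13.01 ± 0.30, 12.58 ± 0.24 and 13.69 ± 0.01 (SD, n = 3), and was not called lower in DSS (-0.43, limma adjusted p = 0.385). Scnn1b, a sodium channel subunit of the same cells, was called higher in DSS (1.36, adjusted p = 0.122). In DSS+PAMK vs DSS they went opposite ways, with Slc26a3 called higher (1.12, limma adjusted p = 0.660) and Scnn1b called lower (-1.02, adjusted p = 0.660). The latter call was lost with normexp (-0.96) and without DSS replicate 1 or 3 or DSS+PAMK replicate 1. The lists of hindgut position, small intestine, general epithelium, stem cell, enteroendocrine and tuft cell and muscle and fat genes, and of the other pentraxins and intelectins, had 0 named probes, and they were not analysed here.

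Of the antimicrobial list 4 of 15 genes had a named probe, and of the leukocyte list 3 of 17, and all of these were called higher in DSS than in Control. Nkg7, a gene of cytotoxic lymphocytes outside that list, was at 14.76, 14.78 and 14.66 on the Control arrays and at 13.74, 13.39 and 13.70 on the DSS arrays. Reg3g, a bactericidal lectin of the epithelium, was at 11.13 ± 2.62, 16.18 ± 1.00 and 11.28 ± 1.04, and all 4 named genes of its list, with Reg3d, Wfdc21 and Saa3, were called higher in DSS than in Control and lower in DSS+PAMK than in DSS. The antimicrobial and leukocyte genes were named in lists selected on these arrays, so their directions are not independent evidence. Over all tested probes, 1.98% were called higher in DSS than in Control and 1.06% lower in DSS+PAMK than in DSS. With slide as a fixed block, Reg3d and Wfdc21 were not called in the first of these comparisons. Reg3d was well above background on only 1 Control and 1 DSS+PAMK array, and Wfdc21 on 2 DSS+PAMK arrays, so the sizes of their differences are not given. None of the 4 passed limma's adjustment in the main fit, with a smallest adjusted p of 0.104 in the first comparison and 0.628 in the second. Il33, an alarmin of the type 2 response, was called higher in DSS (1.87, adjusted p = 0.0707) and lower in DSS+PAMK than in DSS (-1.44, adjusted p = 0.660). The first of these passed limma's adjustment with normexp, with probes well above background on all 9 arrays (adjusted p = 0.0426) and without DSS replicate 3 (adjusted p = 0.0351). Of the leukocyte genes, Itgam rose by 1.93 and the mast cell protease Cpa3 by 3.18 (limma adjusted p = 0.0352 for each, lost under the settings named above). Ms4a2, the beta chain of the IgE receptor, did not stand well above background on the Control arrays and was at least 4.74-fold higher in DSS (adjusted p = 0.0352), but a second probe matching the start of Ms4a2 differed by -0.20 (adjusted p = 0.777) and was not called. With normexp, whose offset draws the log2 values of dim probes together, the DSS vs Control difference of Cpa3 was 1.56. Those of Ms4a2 (0.72) and Itgam (0.73) were below 2-fold and not called.

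**Figure D5:**
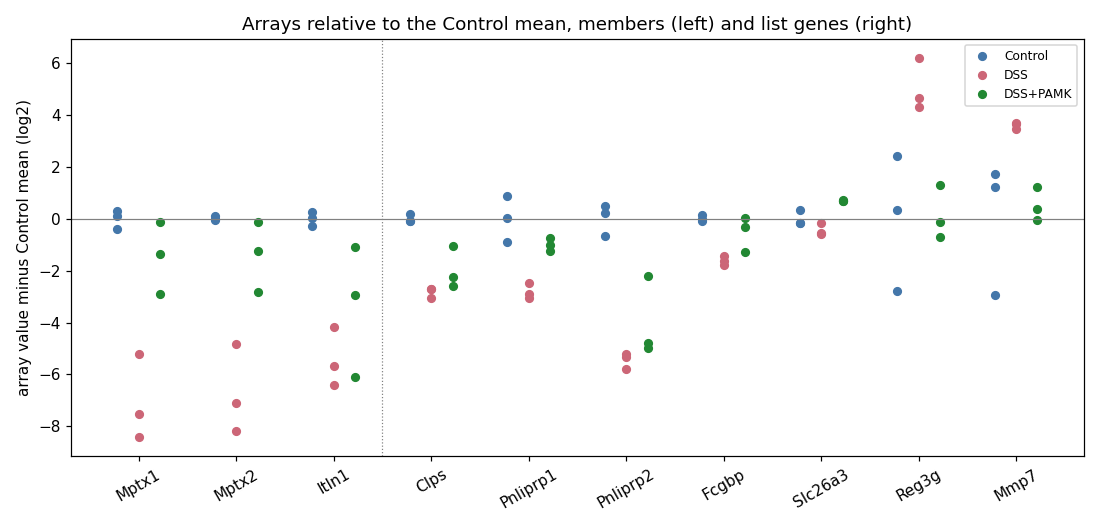
Value of each array minus the Control mean (log2) for the 3 members, on the left, and for 7 list genes, on the right, with 3 points per group and Mptx1 standing for the probe listed under that symbol. Clps, Pnliprp1, Pnliprp2 and Fcgbp are below 0 on the DSS arrays as the members are, while Reg3g and Mmp7 are above it.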

How the data were processed

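The authors hybridized colonic RNA to 1-color Agilent arrays, and the deposited values are intensities from Agilent Feature Extraction 10.7.1.1, corrected for background within each array. From these, outlier spots were left out, log2 values of the processed signal were quantile normalized across all 9 arrays, and spots of a probe were averaged. A probe was tested where all arrays of 1 or more groups had it well above background (99612 of 166924) with limma 3.58.1 in R 4.3.3, fitting all 9 arrays.

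For the 998 probes with 10 spots, well above background meant a majority of the spots that were not outliers. That rule was adopted after the data were seen, because it gave the number of tested probes of an earlier analysis. Requiring every spot, as was done first, gave 99547.

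Members and lists were chosen with earlier results of these data known. Named genes were the members, the list genes and, for each member, the 5 named genes with the highest Pearson r. Symbols came from supplementary lists of probes (183 probes, 176 symbols), and the lists' values were not used. No list gene had more than 1 probe named in those lists. Matching probes to gene starts of RefSeq was added after seeing the files and named 532 more probes (521 symbols), used only as an alternative, in which the probe with the highest mean stood for a gene, and for a second Ms4a2 probe.

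Alternatives were a 75th percentile shift, normexp (offset 50), other filters, slide or replicate number as a block, the methods' t-test and leaving out each array. Scan runs coincided with slides. The number of arrays, 3 per group, limits precision. The labels do not say that each array held RNA of a separate mouse, so p-values measure the spread between these samples.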

Additional observations from a re-analysis of the deposited data

How the results depend on the processing

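The DSS minus Control and DSS+PAMK minus DSS differences of the 3 probes kept their direction under the 75th percentile shift, normexp, slide as a fixed block, within a slide and with any 1 array left out, the alternatives run on them. With slide as a fixed block, and equally within slide 1, DSS minus Control was -5.22 for the probe listed as Mptx1, -4.84 for Mptx2 and -6.40 for Itln1. The block turned the DSS+PAMK minus Control differences to 1.23 (Mptx1), 1.30 (Mptx2) and -5.09 (Itln1). No slide held both of these groups, so each blocked value is the slide 1 difference added to the slide 2 difference. On slide 1 the DSS group was replicate 1 alone, the highest DSS array for both pentraxin probes and the lowest for Itln1. Why the slides differed was not tested. Leaving out single arrays, DSS minus Control ranged from -7.95 to -6.38, -7.61 to -5.97 and -6.03 to -4.91 for Mptx1, Mptx2 and Itln1.

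Counts of called probes moved by over 1.5 times as follows, and the cause was not tested unless the filter itself sets it. The offset of normexp by itself makes log2 differences of dim probes smaller, and its part in the counts was not measured. In DSS vs Control, higher calls (1969) were 459 with normexp, 3391 without a filter and 1171 with probes well above background on all 9 arrays. Lower calls (1076) were 3085 with the 75th percentile shift, 156 with normexp, 2081 without a filter, 359 with the stricter filter, 6930 with slide as a fixed block, 533 by the methods' t-test and 982 to 2183 with 1 array left out. In DSS+PAMK vs DSS, higher calls (641) were 107 with normexp, 1806 without a filter, 271 with the stricter filter, 978 with slide as a fixed block and 576 to 1213 with 1 array left out. Lower calls (1057) were 231, 2656 and 422 under the first 3 of these, 536 by the t-test and 867 to 2686 with 1 array left out. In DSS+PAMK vs Control, higher calls (1648) were 837 with the 75th percentile shift, 184 with normexp, 2851 without a filter, 958 with the stricter filter, 3946 with slide as a fixed block, 952 by the t-test and 1114 to 3503 with 1 array left out. Lower calls (1015) were 4195, 160, 2153, 399, 6706, 667 and 725 to 2510 in the same order.

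The 75th percentile shift moved the median of all probes to -0.11 in DSS vs Control, and the share of higher calls from 64.7% to 30.5%. In DSS+PAMK vs Control that share went from 61.9% to 16.6%.

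In DSS vs Control 6 list genes passed the adjustment, against 0 with replicate number as a block, without a filter, by the methods' t-test and without any 1 Control array or DSS replicate 1. The count was 1 with slide as a fixed block, 5 as a random block and with the stricter filter, 12 with normexp, and 1, 4, 3, 1 and 1 without the DSS replicates 2 and 3 and the DSS+PAMK replicates 1, 2 and 3. The stricter filter left 10 of the 16 list genes tested, and 9, 8 and 3 of these were called in the 3 comparisons, which were all the main calls among them. With normexp 8 (of 13) were called in DSS+PAMK vs DSS and 2 (of 5) in DSS+PAMK vs Control.

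With replicate number as a block, counts were 1949 higher and 1002 lower, 616 and 1085, and 1632 and 1072 in the 3 comparisons, and list genes called were 14, 14 and 5. Same-numbered arrays did not deviate together (correlations from -0.20 to 0.09), so the numbers do not pair them. Chosen after seeing the data, requiring every spot of a probe to be well above background gave 1968 and 1076, 642 and 1057, and 1647 and 1014, and adding probes named by gene start gave 14, 13 and 5 called list genes, with Ms4a2 out and Ptprc in for both comparisons with Control. All 3 members were above background throughout, at least 9.97 times.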
